A study of Homo sapiens with 12 samples.

Results

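The regions described here are stretches of chromatin that carried H3K27ac in both control clones of a lymphoma line and in none of 4 clones without CREBBP or without EP300. They were chosen by presence and absence of the authors' peaks. Peaks of 6 lists that shared at least 1 base were joined into merged regions on chromosomes 1 to 22, and a clone had a region if one of its peaks lay in it. Of 47344 merged regions, 29296 were in both control clones, and 956 of these were in no knock-out clone. Because this rule used all 6 clones, the absence of these regions in the knock-outs is a description and no test is attached to it.

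H3K27ac is the acetylation of lysine 27 on histone H3, a mark of active promoters and enhancers. CREBBP and EP300 are closely related acetyltransferases that place it, are brought to chromatin by transcription factors, and are often both present at the same enhancer. Germinal-centre B cells, in which antibody genes are mutated and selected, depend on both enzymes, and CREBBP is frequently mutated in lymphomas that arise from them. The regions here are those with a called peak when both enzymes were present and none when either was missing.

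The series mapped H3K27ac by ChIP-seq in SUDHL4, an established line of diffuse large B-cell lymphoma (DLBCL). The CREBBP-KO clones were CBP-E13-5 (called clone 1 here, guide against exon 15 per its protocol, although its name carries another number) and CBP-E20-9 (clone 2, exon 20). The EP300-KO clones were P300-E17-17 (clone 1, exon 17) and P300-E24-5 (clone 2, exon 24). The control (WT) clones N4-8 (clone 1) and N5-8 (clone 2) went through the same CRISPR/Cas9 procedure at a neutral site in PPP1R12C and express both enzymes. All were kept as stable lines grown from single cells, so a genotype is represented by 2 clones and any trait peculiar to a clone travels with it. In a bulk culture, fewer cells with the mark and less of the mark per cell cannot be told apart.

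The lists held 36096 and 41099 peaks in the CREBBP-KO clones, 35054 and 35841 in the EP300-KO clones, and 46940 and 40658 in the WT clones. Read depth is unknown, and a missing peak means only that none was called. Windows of 1 Mb named for B-cell genes were acetylated in every clone, with 55 to 68.1 kb covered around CD79A and 12.4 to 19.1 kb around PAX5. Windows named for genes of other cell types were covered too, 47.3 to 67.7 kb around CD3E (T cells) and 16.3 to 25.4 kb around ALB (hepatocytes). At this width the windows therefore do not separate cell types.

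Losing the mark in both knock-outs was uncommon. Of the 29296 regions in both WT clones, 3.26% were absent from all 4 knock-out clones. Absence from both CREBBP-KO clones held for 1460 regions (4.98%) and absence from both EP300-KO clones for 4345 (14.8%). The 956 regions were thus 65.5% of the list lost in CREBBP-KO and 22% of the list lost in EP300-KO. Both lists were defined against the same 2 WT clones. The rule makes the 956 regions a part of each list but does not fix these shares, which were not tested. Nothing about the paralogs is read from them.

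Among the knock-out clones, CREBBP-KO clone 2 was most often the only one to keep a WT region. Single knock-out clones lacked 4461 and 1689 of the WT regions in CREBBP-KO (15.2% and 5.77%), and 5833 and 5241 in EP300-KO (19.9% and 17.9%). A further 1781 regions were in both WT clones and in exactly 1 knock-out clone, and in 1479 of these that clone was CREBBP-KO clone 2, which also had the longer of the CREBBP-KO lists. The other clones held 92 (CREBBP-KO clone 1), 115 (EP300-KO clone 1) and 95 (EP300-KO clone 2). With CREBBP-KO clone 2 left out, 2598 regions met the rule. Leaving out a WT clone also raised the number, as 2177 regions met it without WT clone 1 and 6174 without WT clone 2. Each omission drops a condition of the rule, so a rise is built in and only its size varies. With every list cut to the same number of peaks by score, 460 regions met the rule.

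The lost regions were short and weakly scored. In WT clone 1 they covered a median of 226 bases (lowest 99.0, highest 1700) and in WT clone 2 a median of 162 (lowest 99.0, highest 1113). All regions of both WT clones had medians of 685 and 623 bases in the same clones. The shortest peak in any list was 99 bases, so many lost regions lay close to the smallest peak the authors' caller kept. In 926 of the 956 regions (96.9%), each WT clone had a single peak, as against 72.5% of all regions of both WT clones. Knock-out peaks can join neighbouring WT peaks into a merged region, but never in a lost region. The merging thus adds to this difference, by an amount not measured. It also adds to those in covered length and in score, since a region took the highest score of its peaks.

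The authors' score, whose meaning no source used here states, was low as well. Its median was 33 and 30 in the WT clones over the lost regions, against 66.0 and 57.0 over all regions of both WT clones. As a rank within each list, the median lost region stood at percentile 24.4 in WT clone 1 and 16.8 in WT clone 2. Of the lost regions, 443 (46.3%) lay in the lowest 25% of both WT lists, which held 7.33% of all regions of both WT clones.

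Length and score graded the share that was lost. Regions were grouped by the WT clone in which they covered fewer bases. Under 150 bases, 469 of 2209 regions (21.2%) were lost in both knock-outs. The share was 10.3% from 150 to 200 bases, 5.51% from 200 to 250, 1.73% from 250 to 500 and 0.262% (19 of 7248) from 500 to 1000. None of 8787 regions of 1000 bases or more was lost, and such a count allows a share of up to 0.0341%. By mean score percentile in the WT lists, 167 of 550 regions (30.4%) up to percentile 10 were lost, 4.37% between 25 and 50, 21 of 8591 between 50 and 75, and 0 of 9795 above 75, which allows up to 0.0306%.

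**Figure D1:**
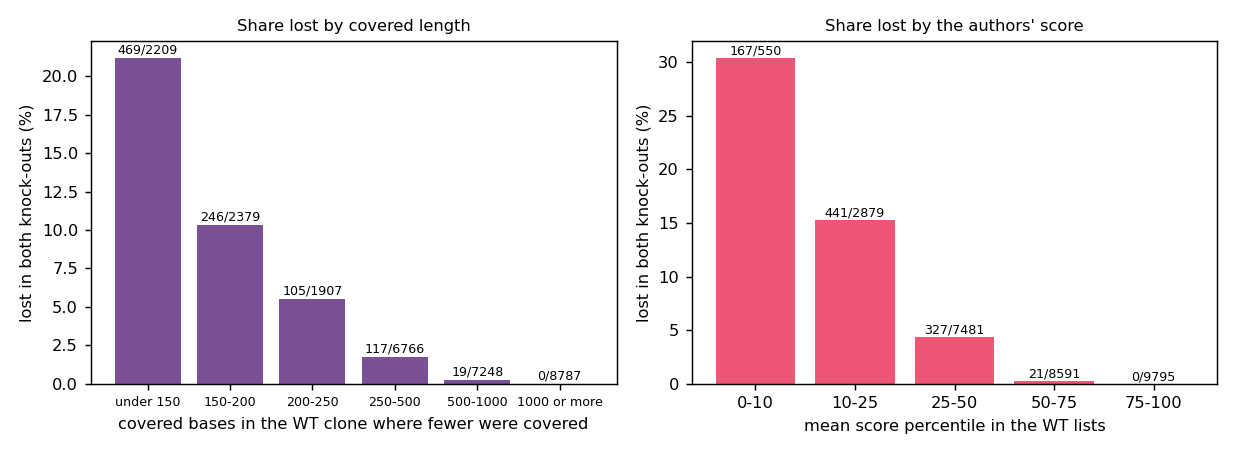
Share of the regions of both WT clones that were lost in both knock-outs (y axis, %), by covered bases in the WT clone with fewer of them (left) and by mean percentile of the authors' score in the WT lists (right). Labels above bars give lost regions over all regions of the class. The share falls from 21.2% under 150 bases to 0 of 8787 at 1000 bases or more.

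Regions lost in only 1 of the knock-outs were set beside them. The 1818 regions lost in EP300-KO and kept in both CREBBP-KO clones covered medians of 379 and 334 bases in WT clones 1 and 2. The 294 regions lost in CREBBP-KO and kept in both EP300-KO clones covered 336 and 207 bases. Regions lost in both knock-outs, with 226 and 162 bases, were shorter than either class at the median. No test was made between classes, since all were cut from the same lists. The 21244 regions kept in all 6 clones covered medians of 914 and 862 bases.

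The WT clones did not contribute equally. WT clone 1 covered more bases than WT clone 2 in 677 of the 956 lost regions (70.8%), and in 62.9% of all regions of both WT clones. WT clone 1 also had the longer list.

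**Figure D2:**
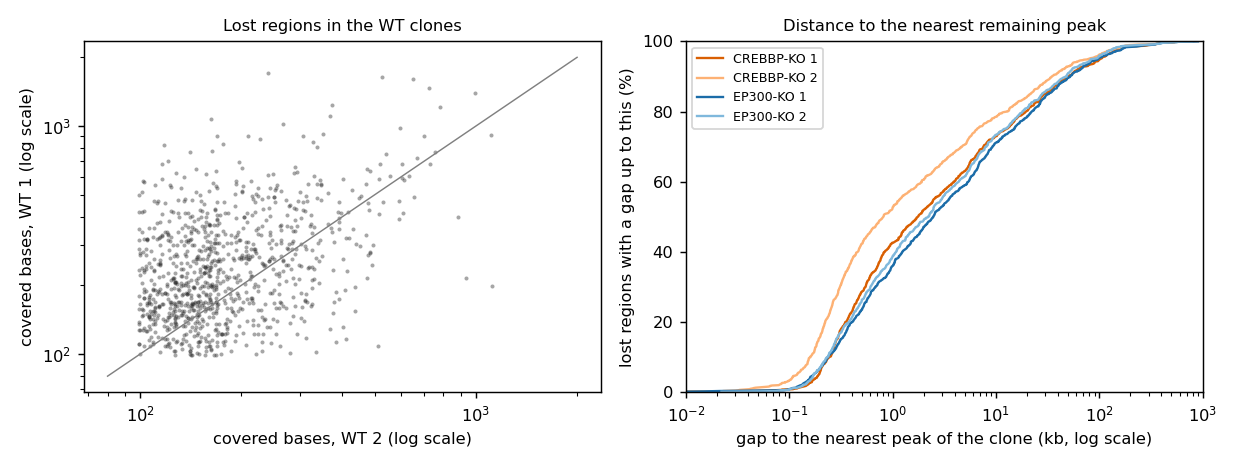
Left, covered bases of each lost region in WT clone 2 (x axis, log scale) and WT clone 1 (y axis, log scale), with the line of equality: 677 of 956 points lie above it. Right, cumulative share of lost regions (y axis, %) whose gap to the nearest peak of a knock-out clone is at most the value on the x axis (kb, log scale): the curve of CREBBP-KO clone 2 lies to the left of the others, with a median of 0.816 kb.

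Many lost regions lay beside peaks that remained. The median gap to the nearest peak was 1.76 and 0.816 kb in the CREBBP-KO clones and 2.48 and 2.21 kb in the EP300-KO clones. Taking the nearest peak of any knock-out clone, 447 regions (46.8%) had one within 500 bases and 172 (18%) had none within 10 kb. All other regions of both WT clones hold a knock-out peak by the rule, so these shares have no like background. By another measure, the nearest merged region of any clone was within 1 kb for 730 lost regions (76.4%), close to the 74.9% of all regions of both WT clones. That neighbour was kept in all 6 clones in 342 cases (35.8%), against 52.3% over all regions of both WT clones. It was itself lost in both knock-outs in 81 cases (8.47%), against 2.05%.

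Coordinates are those of build hg19, counted from 1. At the edge of the rule, the region on chromosome 5 at 77658115 to 77658266 had no knock-out peak and 101 and 148 bases in WT, and a single base separated it from a peak of CREBBP-KO clone 2. On chromosome 20 at 49454100 to 49454274 the nearest knock-out peak was 8 bases away, and on chromosome 3 at 16500591 to 16500852 it was 11 bases away. At the far end, the region on chromosome 8 at 97873789 to 97874325, with 537 and 224 bases in WT, lay 590 kb from any knock-out peak. Just outside the rule, CREBBP-KO clone 2 alone covered 99 bases on chromosome 1 at 52328813 to 52329074, against 247 and 178 in the WT clones. On chromosome 10 at 71993922 to 71994090, 100 bases in EP300-KO clone 1 alone stood against 169 and 131 in WT. These values show how narrow the step from kept to lost can be for short peaks.

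The surroundings of the lost regions were acetylated in every clone, with the least in the EP300-KO clones. Within 25 kb on either side, with the region itself left out, the mean covered length was 3.44 and 4.38 kb in the CREBBP-KO clones, 2.94 and 3.08 kb in the EP300-KO clones, and 4.66 and 4.31 kb in the WT clones. Each EP300-KO clone was thus lower than each WT clone, whereas CREBBP-KO clone 2 lay between the WT clones. The means per genotype (SD, n = 2) were 3.91 ± 0.661 kb for CREBBP-KO, 3.01 ± 0.1 kb for EP300-KO and 4.49 ± 0.248 kb for WT. CREBBP-KO reached 87.1% of the WT mean and EP300-KO 67.1%. Around all regions of both WT clones, CREBBP-KO reached 98.1% and EP300-KO 74.1%. Over both genotypes the knock-outs minus WT came to -1.03 kb, and to -1.60 kb without CREBBP-KO clone 2. With the peaks of every lost region left out of the flanks, the WT clones held 4.56 and 4.23 kb, the knock-out values stayed as they were because they have no such peaks, and CREBBP-KO clone 2 again lay between the WT clones. These flanks come from the clones that chose the regions, so no p is given for them.

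By the rule, no knock-out clone covered the centre of a lost region, and each WT clone had a peak in every one. The centre was covered in 96.0% of them in WT clone 1 and 84.9% in WT clone 2. At 1 kb from the centre, coverage was 12.9% and 17.1% in the CREBBP-KO clones, 10.4% and 11.2% in the EP300-KO clones, and 21.2% and 18.1% in the WT clones. Around all regions of both WT clones it was 26.9% and 33.8%, 23.7% and 24.1%, and 31.9% and 30.4%, in the same order. At 10 kb from the lost regions it was 6.86% and 8.37% in CREBBP-KO, 5.75% and 6.12% in EP300-KO, and 8.79% and 8.11% in WT. Values around all regions of both WT clones were close to these, at 6.89% and 8.62%, 5.75% and 5.96%, and 8.15% and 7.71%. The clone differences at 10 kb therefore do not set the lost regions apart. The narrow spike in WT at the lost regions is thus built into the rule. The low shoulder around it is shared in part by the knock-outs.

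**Figure D3:**
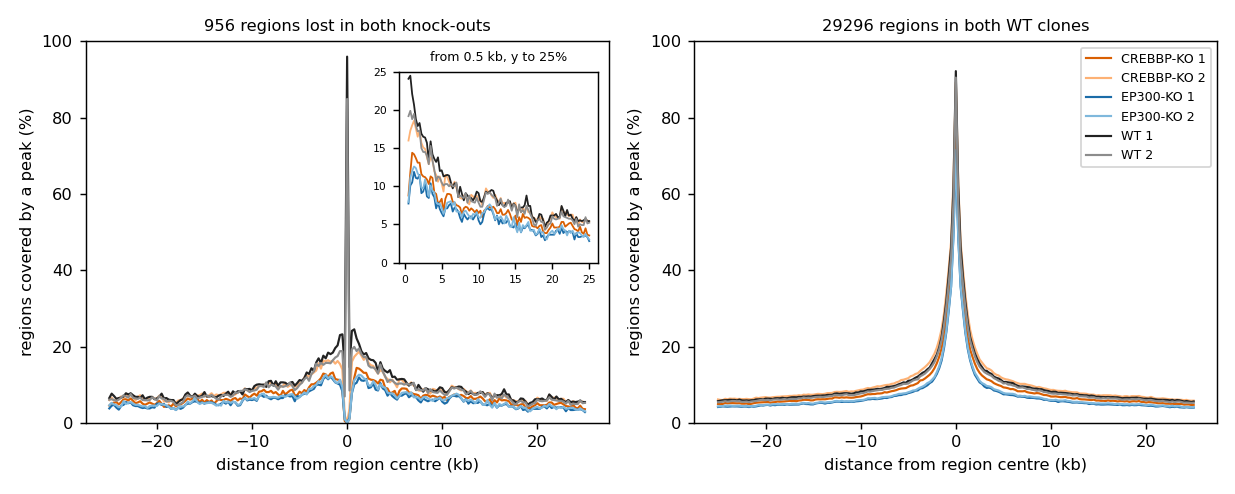
Percentage of regions covered by a peak (y axis) by distance from the region's centre (x axis, kb), for each clone, over the 956 lost regions (left, with an enlarged inset from 0.5 kb outwards) and all 29296 regions of both WT clones (right). By the rule, no knock-out peak lies in a lost region, so the contrast at their centre is built in. At 1 kb from the lost regions coverage is 10.4 to 17.1% in the knock-out clones and 18.1 to 21.2% in WT. At 1 kb from all regions of both WT clones it is 23.7 to 33.8% and 30.4 to 31.9%.

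Some lost regions lay in wide acetylated domains, here neighbouring peaks chained over gaps of somewhat more than 12 kb at most, with 10 kb or more of covered sequence in the chain. A domain of both WT clones held 126 of them (13.2%), close to the 14.6% of all regions of both WT clones. By comparison, 26.4% of the regions lost in EP300-KO and kept in CREBBP-KO lay in such domains, and 3.74% of those lost in CREBBP-KO and kept in EP300-KO. Of the 126, 65 and 96 still lay in a domain of the CREBBP-KO clones, and 52 and 57 in one of the EP300-KO clones.

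Lost regions were found on all 22 autosomes. The share of WT regions lost ranged from 1.74% on chromosome 17 (28 of 1606) to 5.16% on chromosome 18 (28 of 543), with 4.68% on chromosome 3 (87 of 1858). Among regions under 250 bases, the share was 7.01% on chromosome 17, 21.9% on chromosome 18 and 15.4% on chromosome 3. Over 1 Mb windows, 400 held 1 lost region, 126 held 2, and 12 held 5 or more.

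The window with most lost regions holds the genes of 2 cytokine receptors. On chromosome 16 between 27 and 28 Mb, 9 of 23 regions of both WT clones (39.1%) were in no knock-out clone. IL4R, the receptor chain for interleukin 4, and IL21R, the receptor chain for interleukin 21, lie there. Both cytokines are helper T-cell signals to germinal-centre B cells. The name of this window, and those of FCER2, BCL2A1, FOXP1 and RRAS2 below, come from general knowledge of hg19 positions and were added after the values were seen. Covered length in the window was 3.64 and 9.76 kb in the CREBBP-KO clones, 3.31 and 3.98 kb in the EP300-KO clones, and 22.9 and 17.7 kb in the WT clones. The lost regions themselves count in the WT values only. With them left out the WT clones held 19.4 and 15.5 kb, still above every knock-out clone. Of the 12 windows with 5 or more lost regions, 8 had every knock-out clone below both WT clones, and 5 did once the lost regions were left out. Choosing windows by their lost regions favours this order, and the share over all windows was not computed, so nothing is read from these counts.

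Within that window the region at 27311029 to 27311435 covered 407 and 323 bases in WT, with scores of 92 and 50, at percentiles 78.6 and 52.3 of their lists. The nearest peak was 0.267 kb away in CREBBP-KO clone 2, 30.6 kb in CREBBP-KO clone 1, and 30.6 and 13.9 kb in the EP300-KO clones. Its flanks of 25 kb held 0 and 1.46 kb in the CREBBP-KO clones, 0 and 0.171 kb in the EP300-KO clones, and 5.56 and 4.89 kb in WT. These flanks include the lost regions at 27307315 to 27307519, 27307857 to 27308377 and 27313009 to 27313565, which count in WT only. They covered 205 and 137, 493 and 312, and 557 and 336 bases in the WT clones. Each knock-out clone held less than WT in these flanks, and CREBBP-KO clone 2 held the most among them. The region at 27378844 to 27379492 covered 649 and 475 bases in WT, and the nearest peak was 58.5 and 6.22 kb away in CREBBP-KO and 58.5 and 53.3 kb away in EP300-KO. A run of 3 lost regions followed at 27388698 to 27410803, and the one at 27436975 to 27437243 lay 0.166 kb from a knock-out peak. With lists of equal length, 10 regions of the window met the rule, as did 15 without CREBBP-KO clone 2 and 3 once peaks were joined across 1000 bases.

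**Figure D4:**
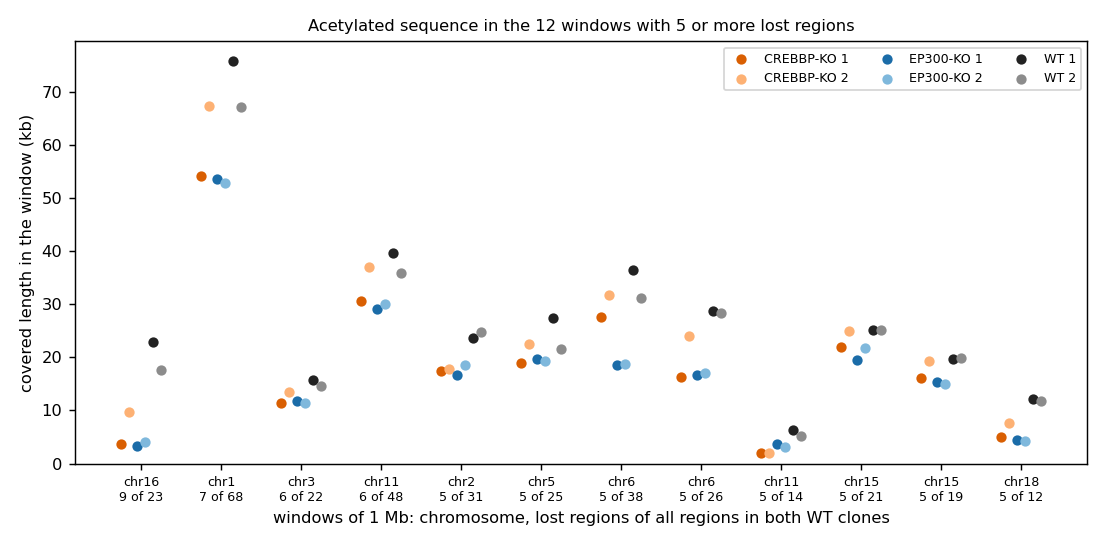
Covered length (y axis, kb) of each clone in the 12 windows of 1 Mb that held 5 or more lost regions, ordered by that number. Labels give the chromosome and the lost regions of all regions in both WT clones. In the chromosome 16 window the knock-out clones sit between 3.31 and 9.76 kb, below the WT clones at 22.9 and 17.7 kb, which include the lost regions.

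The end of chromosome 18 was another stretch with well-scored losses. Between 20957 and 58362, 5 regions were in both WT clones and no knock-out clone, of 12 WT regions in the first Mb (41.7%). The region at 41155 to 41519 covered 365 and 293 bases in WT, with scores of 87 and 76 at percentiles 76.3 and 72.4, the highest mean percentile of all lost regions. The region at 56848 to 58362 covered 1395 and 996 bases in WT, the longest by the rule of the shorter clone. The nearest peak to it was 100 kb away in CREBBP-KO clone 1, 10.3 kb in clone 2, and 99.8 and 100 kb in the EP300-KO clones. CREBBP-KO clone 2 had 2.45 kb within 25 kb of it and the other knock-out clones had none, against 3.96 and 3.87 kb in WT. These WT values include the lost regions at 40581 to 40941 (359 and 329 bases) and 41155 to 41519, which the rule leaves empty in the knock-outs. Sequence near chromosome ends is often repeated elsewhere in the genome, and no source used here states how such reads were placed. The first Mb held 8 lost regions without WT clone 1 and 10 without WT clone 2, and 3 with peaks joined across 1000 bases.

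On chromosome 3, a run of 4 lost regions spanned 8.5 kb at 127553693 to 127562195. Its longer members covered 606 and 632 bases (127553693 to 127554399) and 912 and 1108 bases (127554895 to 127556002) in the WT clones. None of the knock-out clones had a peak within 25 kb of the run, and the nearest was 97.8 kb from it. The run was isolated in WT too, with flanks of 0.148 and 0 kb. Another isolated run on the same chromosome held 3 regions at 181638606 to 181650173, with 1416 and 822 bases in WT and no other peak within 25 kb in any clone. A similar run on chromosome 2 at 158220879 to 158261764 held 3 regions with 1088 and 549 bases and likewise no other peak nearby. Other runs of 3 lay on chromosome 3 at 98250018 to 98252354 and on chromosome 11 at 3925048 to 3936583, 66225036 to 66226720 and 116213484 to 116218721. Most lost regions were single: 845 had no lost region next to them in the order of merged regions, and 43 runs held 2.

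The longest lost regions lay on 6 chromosomes, with more of them on chromosome 3 than on any other. On chromosome 3 at 188404057 to 188405268 the WT clones covered 1212 and 783 bases, and the nearest knock-out peaks were 5.45 to 5.65 kb away. On chromosome 3 at 160759844 to 160760743 they covered 900 and 699 bases, at percentiles 66.2 and 54.3. Its flanks held 0.319 and 1.15 kb in the CREBBP-KO clones, 0.275 and 0.615 kb in the EP300-KO clones, and 4.61 and 2.67 kb in WT. The WT values include another lost region at 160782337 to 160782780. The region on chromosome 3 at 71166615 to 71167339, in the window named for FOXP1, a forkhead transcription factor of B cells, covered 725 and 669 bases. Its nearest peak was 0.793 kb away in CREBBP-KO clone 2 and 10.7 to 10.9 kb away in the other knock-out clones.

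Of the other long ones, the region on chromosome 5 at 1133914 to 1134682 (684 and 603 bases in WT) lay 161 kb from the nearest knock-out peak. The region on chromosome 3 at 62858412 to 62859185 (682 and 730 bases) had peaks 0.770 and 0.230 kb away in the CREBBP-KO clones and 53.7 and 48.9 kb away in the EP300-KO clones. The regions on chromosome 6 at 7912486 to 7914098 (1613 and 648 bases) and on chromosome 2 at 30372418 to 30373459 (979 and 592 bases) had peaks of all knock-out clones at most 1.14 kb away. The region on chromosome 19 at 56366206 to 56367669 (1464 and 723 bases) was 1.23 kb from peaks in both EP300-KO clones and 176 and 175 kb from any in CREBBP-KO. Isolation and closeness to remaining peaks thus both occurred among long lost regions. All 12 of the longest met the rule with lists of equal length, and 7 did once peaks were joined across 1000 bases.

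On chromosome 19, 2 of the better scored lost regions lay in the window named for FCER2. FCER2 encodes CD23, the low-affinity IgE receptor of B cells. The region at 7770377 to 7771148 covered 772 and 753 bases in WT, at percentiles 60.7 and 55.2, and its flanks held 0.566 and 0.911 kb in the CREBBP-KO clones, 0.487 and 0.989 kb in the EP300-KO clones, and 2.30 and 1.8 kb in WT. The region at 7759199 to 7759628 covered 423 and 309 bases in WT. It lies within 25 kb of the first, so its bases count in the WT flanks only. The whole window held 3 lost regions of 35, and its covered length overlapped between CREBBP-KO (21.4 and 27.4 kb) and WT (28 and 27.2 kb), with 19.3 and 21.4 kb in EP300-KO.

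In the upper 50% of both WT lists by score, only 13 lost regions were found. Of these, 4 lay at the end of chromosome 18, 3 on chromosome 3, 3 on chromosome 19, 2 in the IL4R window and 1 on chromosome 12. The chromosome 12 region, at 111064658 to 111065277, covered 588 and 401 bases in WT and lay at most 0.472 kb from a peak in every knock-out clone. The region on chromosome 3 at 177035926 to 177036419 had scores of 97 and 54 and covered 353 and 431 bases in WT. The flanks of the 13 held means of 1.11 and 2.35 kb in the CREBBP-KO clones, 1.07 and 1.26 kb in the EP300-KO clones, and 4.52 and 4.27 kb in WT. Several of them lie in each other's flanks, which the rule leaves empty in the knock-outs. With the peaks of every lost region left out, the WT means were 3.53 and 3.31 kb. These regions were singled out by their WT scores, several share a locus, and nothing is read from the order of the clones.

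Windows of 1 Mb named for B-cell genes and for control genes were then read, 44 in all, with the share of 3.26% over all regions as the background. They held 52 lost regions of 1339 (3.88%), spread over 24 windows. The 3 windows of MHC class II presentation held 10 of 68 (14.7%). HLA-DRA encodes a class II chain and CD74 the invariant chain that guides class II molecules to the compartment where peptides are loaded. Their windows held 5 of 26 and 5 of 25, and that of CIITA, the transactivator of class II genes, held 0 of 17. The HLA-DRA window covered 16.3 and 24.1 kb in the CREBBP-KO clones, 16.7 and 17.0 kb in the EP300-KO clones, and 28.7 and 28.3 kb in WT. Without the lost regions the WT clones held 27.5 and 27.1 kb, still above every knock-out clone. The CD74 window had 19 and 22.6 kb in the CREBBP-KO clones, 19.7 and 19.4 kb in the EP300-KO clones, and 27.4 and 21.6 kb in the WT clones, so that CREBBP-KO clone 2 overlapped WT.

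In the HLA-DRA window the lost region at 32406436 to 32406905 covered 470 and 152 bases in WT and lay 0.929 kb from a knock-out peak. Those at 32589081 to 32589383 (161 and 303 bases) and 32659131 to 32659581 (297 and 451 bases) lay 0.168 and 0.499 kb from one. HLA genes have near-identical copies that vary between people, and no source used here states how reads shared by copies were treated. In the CD74 window the region at 149794461 to 149794984 covered 494 and 454 bases in WT, with a knock-out peak 0.163 kb away. With lists of equal length the class II windows held 5 lost regions in place of 10, and joining peaks across 200 bases also gave 5. Over all regions the total of 956 fell to 460 and 701 under the same settings. They held 18 without CREBBP-KO clone 2 and 29 without WT clone 2.

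The remaining lists lay on both sides of the background, with counts that moved with the clones used. The dark zone windows, where dividing germinal-centre cells reside, held 5 of 100 lost regions (4 around FOXO1, a transcription factor, and 1 around CXCR4, a chemokine receptor). The CD40 and NF-kB windows held 5 of 94, among them 3 around REL, an NF-kB subunit. The window of BCL2, the inhibitor of apoptosis, held 4 of 41, and that of MME, which encodes the germinal-centre surface enzyme CD10, held 4 of 23. With lists of equal length the MME window held 0. Windows of germinal-centre transcription factors held 4 of 213, 3 of them around POU2AF1, a co-activator of octamer-binding factors, and none around BCL6, IRF8, SPIB or LMO2.

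B-lineage factor windows held 5 of 200, with 3 around EBF1 and none around PAX5, IKZF1 or BACH2. The B-cell receptor windows held 6 of 192, and the windows of S1PR2 and GNA13, which keep cells within the germinal centre, held 4 of 86. No lost region lay in the light zone windows (0 of 16, CD83 and MYC) or in the plasma cell windows (0 of 26, IRF4, PRDM1 and XBP1). Such counts allow shares of up to 18.8% in the light zone windows and 11.5% in the plasma cell windows. A window without lost regions could still differ in covered length. Around CD83 the CREBBP-KO clones covered 1.19 and 2.18 kb and the EP300-KO clones 1.85 and 2.56 kb, against 7.58 and 5.52 kb in WT. Around MYC, CREBBP-KO clone 2 (13.4 kb) lay between the WT clones (14.9 and 12.8 kb). The windows of other cell types held 1 of 107 and that of ACTB 1 of 31. The 3 windows of the edited genes held 3 of 115, with 2 of 41 around EP300 and 0 of 38 around CREBBP.

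Most of these counts changed by more than 1.5 times without CREBBP-KO clone 2, WT clone 1 or WT clone 2. Over all regions the total of 956 rose to 2598, 2177 and 6174 under these omissions. It changed less without CREBBP-KO clone 1 (1044), EP300-KO clone 1 (1076) or EP300-KO clone 2 (1053). The B-lineage windows held 18 lost regions without CREBBP-KO clone 2, 13 without WT clone 1 and 42 without WT clone 2. Given for the same omissions, the B-cell receptor windows held 14, 11 and 25, and the dark zone windows 13, 10 and 27. The CD40 and NF-kB windows then held 13, 9 and 19, and the germinal-centre factor windows 10, 10 and 33. All of these lists grew under each omission, a direction that is built into the rule because leaving out a clone drops a condition. The windows of S1PR2 and GNA13 held 10, 9 and 13, that of BCL2 8, 7 and 12, and that of MME 4, 7 and 7. Windows of other cell types held 6, 5 and 15, that of ACTB 2, 5 and 12, and those of the edited genes 7, 5 and 11, so the control windows grew as well. The light zone windows held 1, 1 and 2, and the plasma cell windows 1, 1 and 5. With lists of equal length the B-lineage windows held 1, and the dark zone, CD40 and NF-kB, germinal-centre factor and BCL2 windows 2 each. Joining peaks across 200 bases left 1 in the CD40 and NF-kB windows and 2 in the germinal-centre factor windows. Over all regions these settings left 460 and 701.

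Other windows with 5 or more losses included chromosome 15 between 80 and 81 Mb, named for BCL2A1, an anti-apoptotic relative of BCL2. It held 5 of 19, and covered 16.2 and 19.4 kb in the CREBBP-KO clones, 15.3 and 15.0 kb in the EP300-KO clones, and 19.7 and 19.8 kb in WT. On chromosome 11 between 14 and 15 Mb, named for the small GTPase RRAS2, 5 of 14 regions were lost. Its covered length was 1.99 and 1.96 kb in the CREBBP-KO clones, 3.70 and 3.13 kb in the EP300-KO clones, and 6.30 and 5.23 kb in the WT clones. These WT values include the lost regions. Without them WT held 18.5 and 19 kb in the BCL2A1 window, below CREBBP-KO clone 2, and 4.59 and 4.41 kb in the RRAS2 window, above every knock-out clone. With lists of equal length 2 lost regions were left in each of these windows, and the RRAS2 window held 8 without EP300-KO clone 1 and 9 without WT clone 2. In the window on chromosome 1 between 27 and 28 Mb, with 7 of 68 lost, CREBBP-KO clone 2 covered 67.4 kb and overlapped WT at 75.8 and 67.2 kb. There CREBBP-KO clone 1 covered 54.2 kb and the EP300-KO clones 53.6 and 52.8 kb. It held 2 lost regions with lists of equal length, 16 without CREBBP-KO clone 2, 11 without WT clone 1 and 18 without WT clone 2.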

How the data were processed

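H3K27ac peak lists of 6 clones were used. The 6 inputs have no values of their own here. Per the file headers, the authors called peaks separately for each clone against that clone's input. CASAVA 1.8, Bowtie2 2.1.0, SAMtools 0.1.19 and build hg19 appear in the submitters' processing notes, and no source used here names the peak caller. The deposited score per peak has no stated meaning and only ranked or filtered peaks within a list. Starts were read as counted from 0. Regions, gaps, flanks and domains were computed in Python 3.11.15 with pandas 2.3.3, with code tested on simulated lists. Covered length is the sum of peak lengths. Regions were named by rules on length (12), score (8), gap (6), runs of 3 or more and 1 Mb windows. Members, windows and lists were chosen with earlier results of these data known, and windows are named from general knowledge of hg19. The result of 1 listed window is not reported here, although the totals over all windows include it. The chromosomes of the 44 listed genes were checked against a GRCh38 gene table, and a genome or annotation of hg19 was not used here. Clones come from separate single cells, and no test was made because the rule used every clone. Limits of a count of 0 (3 counts) treat regions as independent.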

Additional observations from a re-analysis of the deposited data

How the results depend on the processing

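The number of lost regions changed with the clones used and with the peaks admitted. An omitted clone drops a condition of the rule, so a higher number is built in there. Leaving out 1 clone gave 1044 to 6174 regions (3.55 to 16% of the regions of the WT clones used), with 2598 (8.56%) without CREBBP-KO clone 2, 2177 (6.52%) without WT clone 1 and 6174 without WT clone 2. Joining peaks across 1000 bases gave 382 regions (2.1%), and lists cut to the 33969 best-scoring peaks gave 460 (1.84%), of which 312 overlapped the 956. At a score of at least 30 the number was 724, of which 395 overlapped, and the upper 50% of both WT lists, a choice made after seeing the data, kept 13. The median covered length in WT, 194 bases as a mean of both clones, was 264 with lists of equal length and 256 at a score of at least 30. The flank difference, -1.03 kb in knock-outs against WT, was -0.722 kb with joining across 1000 bases, -0.441 kb for flanks of 5 kb, -2.22 kb for 100 kb, and -0.808 to -1.60 kb when 1 clone was left out. With the peaks of every lost region left out of the flanks, an alternative added after seeing the data, it was -0.933 kb. The difference was negative in every alternative run, all of them drawn from the same clones. Around all regions of both WT clones it was negative too, at -0.0788 kb for CREBBP-KO and -1.08 kb for EP300-KO. Its sign therefore does not set the lost regions apart. Unmerged stretches numbered 1397, and counting end positions, also added later, gave 957. No paired analysis was possible because replicate numbers only name clones. Read depth is unknown, so what it limits cannot be stated.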

Other observations

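On the X chromosome, which the rule leaves out, 15 of 840 regions of both WT clones (1.79%) were in no knock-out clone.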
